A study of Mus musculus with 4 samples.

Results

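The 10 genes described here are markers of the ovarian surface epithelium and of the mesothelium, together with Pax8, a marker of the Müllerian duct. The mesothelium is the cell sheet that lines the peritoneal cavity, and the ovarian surface epithelium is closely related to it. The genes were chosen by symbol (Krt7, Krt8, Krt18, Krt19, Msln, Muc16, Upk3b, Wt1, Gata4 and Pax8), and all 10 were among the 22063 genes of the deposited table. RNA was sequenced from ID8, a mouse ovarian cancer cell line derived from ovarian surface epithelial cells, with 2 libraries from cells carrying a control shRNA (shCtrl) and 2 from cells carrying one directed at USP9X (shUSP9X). An shRNA is a short hairpin RNA that lowers the mRNA it is matched to, and USP9X is an enzyme that removes ubiquitin from other proteins. Both groups were labelled as wild type in genotype. The sources used here do not give the number of shRNAs or cell clones behind the shUSP9X libraries, the oxygen level, or whether TGF-β1 was added. The labels do not say that the libraries of a group came from separate cultures, so p-values measure the spread between these libraries, which may be technical. The shCtrl libraries held 17232006 and 15611363 estimated counts in total, and the shUSP9X libraries 19978889 and 17021261.

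The knockdown label was checked first. Usp9x (chromosome X, 13071498 to 13173328, plus strand; GRCm38, GENCODE M21, as for all positions below) had 5169 and 4453 counts in the shCtrl libraries and 390 and 346 in the shUSP9X libraries. Both shUSP9X libraries lay far below both shCtrl libraries, with a log2 fold change of -3.85 (SE 0.06, adjusted p = 4.7e-26, edgeR quasi-likelihood test, as for all adjusted p-values below unless another test is named). With each library's trend on GC content and transcript length removed by an offset, described below, the value was -2.44.

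Keratins are the intermediate filament proteins of epithelial cells. They assemble as pairs of a type II protein (here Krt7 or Krt8) with a type I protein (Krt18 or Krt19), and the Krt8 and Krt18 pair is typical of simple epithelia. Mesothelin (Msln) is a glycoprotein anchored in the outer membrane that binds the large mucin Muc16, known in the clinic as CA125, and Upk3b is a uroplakin of the mesothelial surface. Wt1 and Gata4 are zinc finger transcription factors of the ovarian surface and the coelomic lining, whereas Pax8 is a paired box transcription factor of the Müllerian duct and the fallopian tube epithelium.

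The Krt8 and Krt18 genes lie in the same keratin cluster, and the sequence before each start is shown because both genes were higher in the shUSP9X libraries. That of Muc16 is shown beside them because its reads nearly all came from shCtrl. The RefSeq promoter table (GRCm38.p6) held 6 of the 10 genes (Krt7, Krt8, Krt18, Upk3b, Pax8 and Muc16). The stretches below are the part of the 250 bases before the RefSeq start that lies outside annotated exons, written 5′ to 3′ on the strand of the gene: chr15:102004483-102004592 (minus strand) for Krt8, chr15:102027966-102028179 (plus strand) for Krt18 and chr9:18674604-18674853 (minus strand) for Muc16. Capitals mark matches to the 7 short motifs listed after them.
Krt8: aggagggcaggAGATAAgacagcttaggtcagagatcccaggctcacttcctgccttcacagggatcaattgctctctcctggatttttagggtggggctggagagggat
Krt18: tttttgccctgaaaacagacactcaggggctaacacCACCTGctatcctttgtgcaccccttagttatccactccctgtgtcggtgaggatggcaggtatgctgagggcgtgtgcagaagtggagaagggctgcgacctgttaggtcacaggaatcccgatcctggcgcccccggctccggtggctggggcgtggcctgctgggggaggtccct
Muc16: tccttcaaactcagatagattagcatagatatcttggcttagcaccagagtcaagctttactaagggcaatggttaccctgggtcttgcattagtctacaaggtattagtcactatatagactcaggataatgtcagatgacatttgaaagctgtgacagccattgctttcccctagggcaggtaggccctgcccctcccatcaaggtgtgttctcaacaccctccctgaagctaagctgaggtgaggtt

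The 110 bases of Krt8 had a GC content of 53.6% and 0 CpG dinucleotides, the 214 bases of Krt18 had 60.7% and 8, and the 250 bases of Muc16 had 46.4% and 0. The motifs, each searched on both strands in the 250 bases before every start of the RefSeq table, were TATAAA (in 12.4% of 32851 windows), GGGCGG (32.7%), CCAAT (33.8%), TGANTCA (6.75%), GGAATG (12.6%), AGATAA (9.99%) and CACCTG (17.2%). None of these strings overlaps another by its whole length. In Krt8 the GATA string AGATAA lay 239 to 234 bases before the start, and a CACCTG string lay 111 to 106 bases before it, in a stretch that GENCODE M21 annotates as exon and that is not printed. In Krt18 a CACCTG string lay 214 to 209 bases before the start. CACCTG, the string of the E-box that SNAIL and ZEB factors are known to bind, was thus the one shared by the Krt8 and Krt18 windows. The window of Krt7, which was almost silent in these cells, also held it, 44 to 39 bases before the start, along with 4 GGGCGG strings. No searched string was found in the Muc16 window. These matches describe letters in a window and were not tested as binding sites.

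Per unit of transcript length, the filament genes and Msln were among the abundant transcripts of these cells. FPKM (fragments per kilobase of transcript, scaled to the size of the library) averaged 453 ± 5.82 for Krt19, 268 ± 8.09 for Krt18, 231 ± 7.71 for Msln, 176 ± 7.39 for Wt1, 164 ± 4.39 for Krt8, 47.3 ± 0.849 for Upk3b and 37.1 ± 3.36 for Gata4 in shCtrl (mean ± SD, n = 2, as below). Muc16 (0.331 ± 0.144), Pax8 (0.131 ± 0.103) and Krt7 (listed at 0 in both libraries) were near the floor of detection. In shUSP9X the order changed in the middle. Krt8 passed Msln and Wt1 to become the third of the 10 genes at 304 ± 0.0339 FPKM, behind Krt19 (482 ± 15.5) and Krt18 (411 ± 3.79) and ahead of Msln (163 ± 2.10) and Wt1 (121 ± 1.09). Among all 22063 genes, Krt8 went from rank 400 to rank 233 by mean FPKM, while Msln went from 267 to 475 and Wt1 from 370 to 685. In shCtrl the neighbours Wt1 and Krt8 were close, with library values of 170 and 181 FPKM against 161 and 167, whereas in shUSP9X all of the 7 abundant genes were separated from their neighbours by more than the spread between libraries. Of the markers of the labelled ovarian cells, Krt8, Krt18, Krt19, Msln, Wt1, Upk3b and Gata4 were thus abundant. Krt7 was nearly absent, and the mesothelial and ovarian surface genes Calb2, Aldh1a2, Lhx2 and Tcf21 had 0 counts in all 4 libraries. No reference tissue was compared.

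**Figure D1:**
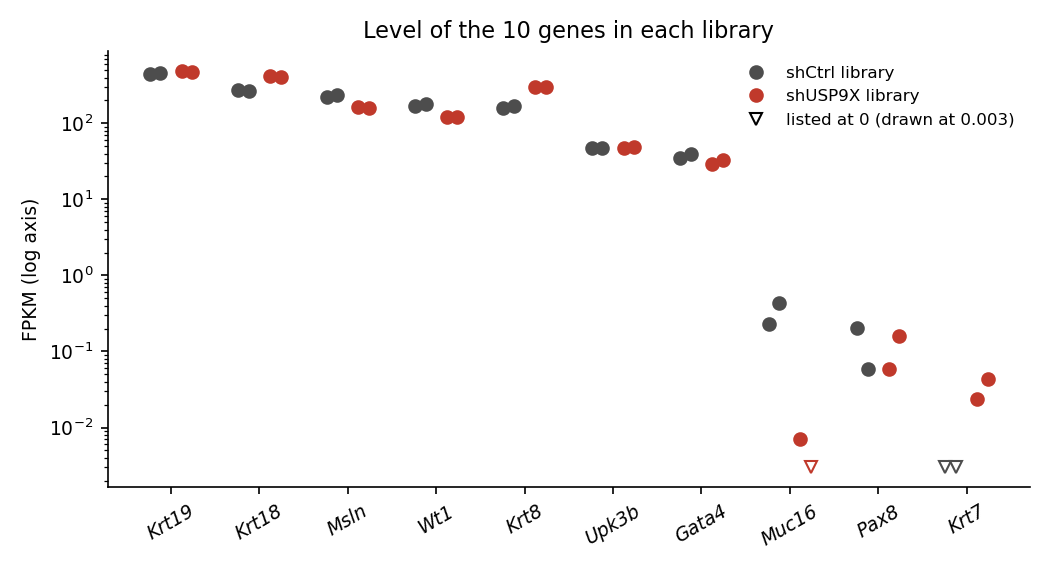
FPKM on a log axis for the 10 genes in each library, with shCtrl in grey and shUSP9X in red, 1 point per library, and open triangles for values listed at 0. The points of 7 genes lie above 29 FPKM and those of Muc16, Pax8 and Krt7 below 0.5 FPKM, and Krt8 and Krt18 are visibly higher, Msln and Wt1 lower, in shUSP9X.

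Of the 10 genes, 8 passed the filter on low counts. Muc16 did so only through its shCtrl libraries, which fixes its direction. Genes that reached the level of the filter in both libraries of 1 group alone are left out of the counts of calls. They are given by their read counts with no p. Counts over all genes tested, and over the neighbours of Krt8 and Krt18, keep such genes. Muc16 left out, 3 of the other 7 genes were lower in shUSP9X against shCtrl (Msln, Wt1 and Gata4). The genes Krt8, Krt18 and Krt19 were higher, and Upk3b did not pass the test. Calls were frequent in this comparison. Of the 11448 genes tested, 33.6% were lower and 33.8% higher, 67.3% in either direction, so the calls on 6 of 7 genes are given as a description of each gene and not as a result about the group. The median log2 fold change of the 7 genes was 0.05 (-0.17 with the offset described below), beside -0.00051 over all genes tested.

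Fold changes in these libraries moved with base composition. The value with the trend on GC content and transcript length removed is given beside most of the fold changes below. The median log2 fold change rose from -0.80 in the decile of genes lowest in GC content to 0.22 in the decile that holds Krt8, Krt18, Krt19, Msln and Gata4 (55.5 to 57.8% GC) and 0.23 in that of Wt1 and Upk3b. After the offset that removed each library's trend on GC content and transcript length, 27.7% of all genes were lower and 36.0% higher, and of the 7 genes 5 were lower and 2 higher. Krt19 then fell by 0.17 in place of a rise, and Upk3b passed the test in the lower direction, while Krt8 and Krt18 stayed higher and Msln, Wt1 and Gata4 stayed lower. The parts of GC content and of transcript length in the offset were not separated. Dst (49.5% GC), Macf1 (46.9%) and Tead1 (46.5%), described below, lay in deciles with medians of 0.05, -0.06 and -0.06. With the offset they moved from -1.45 to -0.20, from -1.22 to 0.21 and from -0.92 to -0.01. Why the libraries differ by GC content was not tested.

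**Figure D2:**
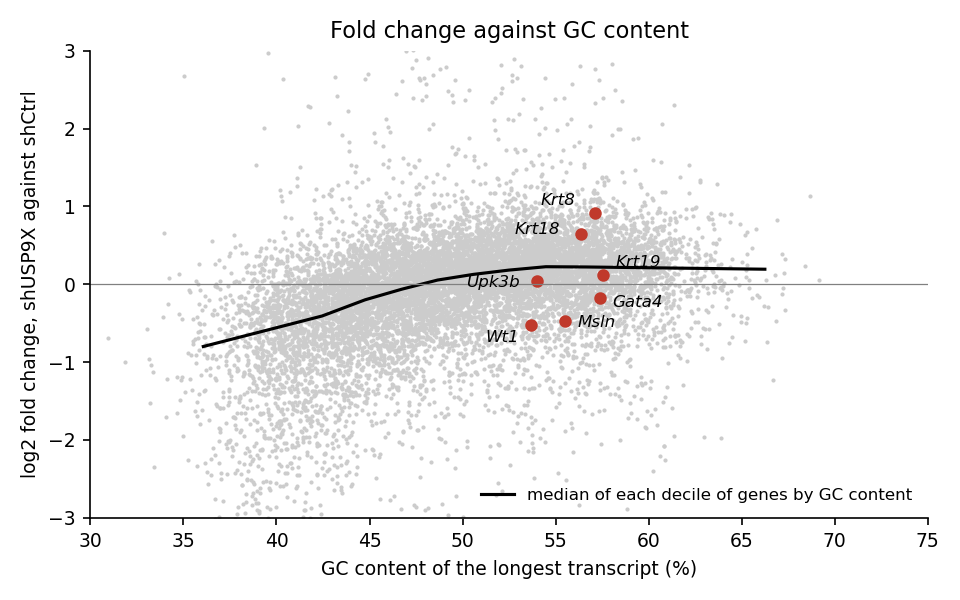
Log2 fold change (shUSP9X against shCtrl) against the GC content of the longest transcript for the genes tested (grey) and for 7 of the markers (red), with a line through the median of each decile of genes by GC content. The line climbs from -0.80 to 0.23, Krt8 and Krt18 lie above it and Msln, Wt1 and Gata4 below, Krt19 and Upk3b lie between 0 and the line, and genes beyond the vertical axis, Muc16 among them, are not drawn.

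Of the tested keratins among the markers, Krt8 rose most. Krt8 (ENSMUSG00000049382, chromosome 15, 101996698 to 102004482, minus strand) had 5441 and 5119 counts in the shCtrl libraries and 11905 and 10141 in the shUSP9X libraries. In FPKM its level was 161 and 167 against 304 and 304. Both shUSP9X libraries lay well above both shCtrl libraries and almost coincided with each other. The log2 fold change was 0.92 (SE 0.04, adjusted p = 5.5e-18), or 0.65 once the offset was applied. Of all genes tested, 16.1% had a change at least as large in either direction.

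Krt18 (ENSMUSG00000023043, chromosome 15, 102028180 to 102032027, plus strand), the type I partner of Krt8, had 6776 and 5882 counts in shCtrl against 11868 and 9980 in shUSP9X. Its FPKM was 274 and 262 against 413 and 408. The groups did not overlap, and the log2 fold change was 0.64 (SE 0.04, adjusted p = 1.3e-14), or 0.34 with the offset. Krt8 and Krt18 stand 23697 bases apart with 0 annotated genes between them. Of 22 other genes tested within 500 kb, 13 were higher and 5 lower (33.8% and 33.6% over all genes tested), with a median of 0.17 and a range of -2.89 to 1.91. Genes that reached the filter in 1 group alone were not left out of this count, so the direction of some may be fixed by the filter.

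Krt19 (ENSMUSG00000020911, chromosome 11, 100140810 to 100148665, minus strand), a type I keratin with a very short tail, had 12190 and 11246 counts in shCtrl against 15535 and 12647 in shUSP9X. Its FPKM was 449 and 457 against 493 and 471. The groups did not overlap but lay close together, with a log2 fold change of 0.12 (SE 0.03, adjusted p = 0.00274). The call was lost without shUSP9X replicate 1 (0.09, adjusted p = 0.172), and the direction turned with the offset (-0.17, adjusted p = 2.2e-05).

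Krt7 (ENSMUSG00000023039, chromosome 15, 101411043 to 101430313, plus strand), the type II keratin often paired with Krt19, had 0 and 0 counts in shCtrl against 2 and 3 in shUSP9X. A count of 3, taken as the floor of detection, stands for 0.174 and 0.192 CPM (counts scaled to the library total) in the shCtrl libraries and 0.150 and 0.176 in the shUSP9X libraries. Krt7 was at or under it in all 4 libraries and was not tested, so a difference was not detectable at this depth.

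The make-up of the keratin pool differed between the groups. All 53 keratin rows of the table gave a sum of 923 and 926 FPKM in shCtrl, against 1287 and 1256 in shUSP9X. Krt8 made up 17.5 and 18.1% of that sum in shCtrl and 23.6 and 24.2% in shUSP9X. The share of Krt18 went from 29.6 and 28.3% to 32.1 and 32.5%, and that of Krt19 from 48.6 and 49.3% to 38.3 and 37.5%. Krt19 thus took a smaller share in both shUSP9X libraries while its own FPKM was slightly higher. With the offset Krt19 was lower (log2 fold change -0.17, adjusted p = 2.2e-05), and no share was computed with the offset.

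The ratio of type II (Krt7 and Krt8) to type I (Krt18 and Krt19) keratin FPKM was 0.228 ± 0.00681 in shCtrl and 0.341 ± 0.00734 in shUSP9X (n = 2), a difference of 0.113 that was many times the spread between libraries. The ratio of Krt8 to Krt18 was 0.589 and 0.639 in shCtrl and 0.736 and 0.746 in shUSP9X, and that of Krt8 to Krt19 was 0.359 and 0.366 against 0.617 and 0.645. These ratios are given as values with no test, and an exact two-sided permutation test of 2 libraries against 2 cannot go below p = 0.333.

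**Figure D3:**
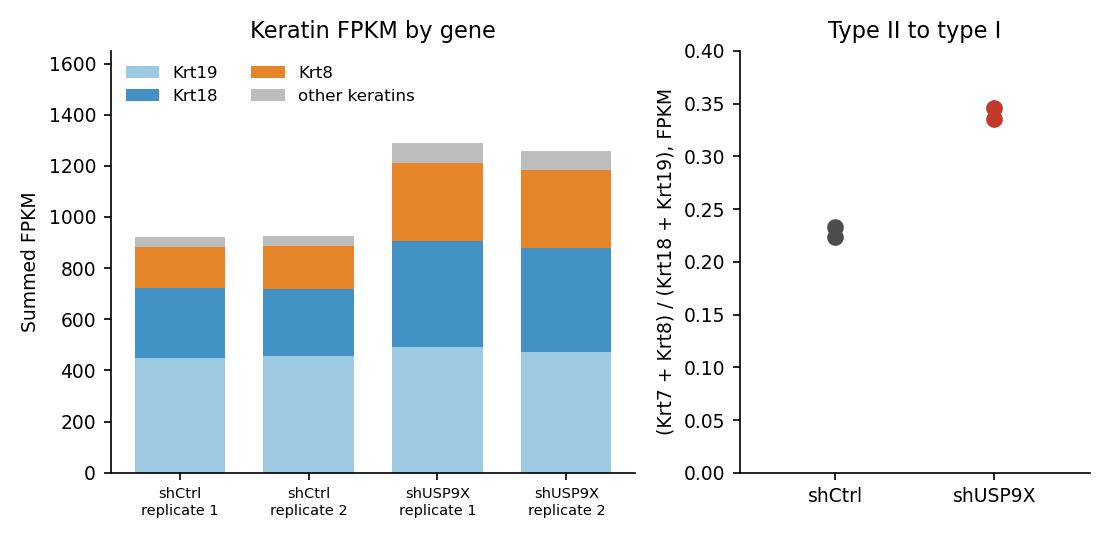
Left, summed keratin FPKM in each library split into Krt19, Krt18, Krt8 and all other keratins. Right, the ratio of type II (Krt7 and Krt8) to type I (Krt18 and Krt19) FPKM per library. The sum is 923 and 926 in shCtrl and 1287 and 1256 in shUSP9X, with most of the added height from Krt8 and Krt18, and the ratio is higher in both shUSP9X libraries.

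Beyond the 4 keratins above, most of the family was silent. Of 53 keratin rows, 30 were at 0 in all libraries and 10 were tested, of which Krt13, Krt16 and Krt79 reached the level of the filter in both libraries of shUSP9X alone. Of the other 7, 6 were higher and none was lower, beside 33.8% and 33.6% of all genes tested. With the offset, Krt19 was lower and 5 stayed higher. Leaving out the 4 marker keratins, 3 of 4 rose (Krt80, Krt14 and Krt6a), with a median log2 fold change of 0.92. Krt80, a type II keratin and the most abundant of these, went from 20.2 and 22.5 FPKM to 41.9 and 41.0 (log2 fold change 0.99, SE 0.06, adjusted p = 1.5e-14). Krt14, a type I keratin of basal epithelial cells, went from 16.3 and 14.9 to 29.1 and 26.2 FPKM (0.85, adjusted p = 1.5e-09). Krt80, Krt14, Krt13 and Krt79 were named after their values were seen. Krt16 and Krt6a, keratins of stressed stratified epithelium, were at low counts. Krt16 had 5 and 3 counts against 18 and 21. Krt6a had 44 and 24 against 97 and 89 (1.31, adjusted p = 0.00012). With the offset, Krt80 was at 0.85, Krt14 at 0.57 and Krt6a at 1.08.

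Msln and Wt1 fell by similar amounts. Msln (ENSMUSG00000063011, chromosome 17, 25748613 to 25754378, minus strand) had 8207 and 7777 counts in shCtrl against 6955 and 5834 in shUSP9X, or 225 and 236 against 164 and 161 FPKM. The shUSP9X values were lower than either shCtrl value, with a log2 fold change of -0.47 (SE 0.04, adjusted p = 1.3e-11), or -0.72 with the offset.

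Muc16 (ENSMUSG00000109564, chromosome 9, 18495455 to 18674530, minus strand), the mucin that mesothelin binds, was a rare transcript. It had 33 and 43 counts in the shCtrl libraries and 1 and 0 in the shUSP9X libraries, which amounts to 0.229 and 0.433 against 0.007 and 0 FPKM. Both shUSP9X counts were under the floor of 3 counts. Muc16 passed the filter only through shCtrl, so that the groups do not overlap was fixed by the filter. No fold or interval is therefore given. Muc16 differed from the other 7 genes tested in base composition too, with a GC content of 43.3% in a decile of genes whose median log2 fold change was -0.41.

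Upk3b (ENSMUSG00000042985, chromosome 5, 136038496 to 136046487, plus strand), the uroplakin, had 2912 and 2572 counts in shCtrl against 3367 and 2891 in shUSP9X. In FPKM the groups overlapped, at 47.9 and 46.7 against 47.7 and 48.1. In CPM they did not, as for 82.3% of all genes tested. The log2 fold change was 0.05 (SE 0.04, adjusted p = 0.342), and -0.12 with the offset (adjusted p = 0.0128).

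Wt1 (ENSMUSG00000016458, chromosome 2, 105126529 to 105173616, plus strand), a transcription factor whose expression is retained in mesothelium and in serous ovarian cancers, had 6210 and 5892 counts in shCtrl against 5070 and 4253 in shUSP9X. Its FPKM was 170 and 181 against 122 and 120. The groups did not overlap, with a log2 fold change of -0.52 (SE 0.04, adjusted p = 4e-12), and -0.71 with the offset. The ratio of Msln to Wt1 FPKM was 1.32 and 1.31 in shCtrl and 1.35 and 1.34 in shUSP9X, so both transcripts were lower by nearly the same factor.

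Gata4 (ENSMUSG00000021944, chromosome 14, 63198922 to 63271692, minus strand) had 1665 and 1709 counts in shCtrl against 1724 and 1565 in shUSP9X, or 34.8 and 39.5 against 29.2 and 33.2 FPKM. In CPM the libraries were at 96.0 and 108 against 87.2 and 92.9, so the nearest libraries of the 2 groups were closer to each other than the libraries within either group. The log2 fold change of -0.18 (SE 0.06, adjusted p = 0.00808) lost its call without shCtrl replicate 2 (-0.09, adjusted p = 0.169) and without shUSP9X replicate 1 (-0.13, adjusted p = 0.152). With the offset it was -0.35.

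Pax8 (ENSMUSG00000026976, chromosome 2, 24420560 to 24475599, minus strand) was close to silent, with 9 and 2 counts in shCtrl against 3 and 7 in shUSP9X. The groups overlapped, and the ratio of the summed counts relative to library totals was 0.807 (exact 95% interval 0.307 to 2.09). The interval covers counting error only, since molecular identifiers are not described. Pax8 was not tested.

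**Figure D4:**
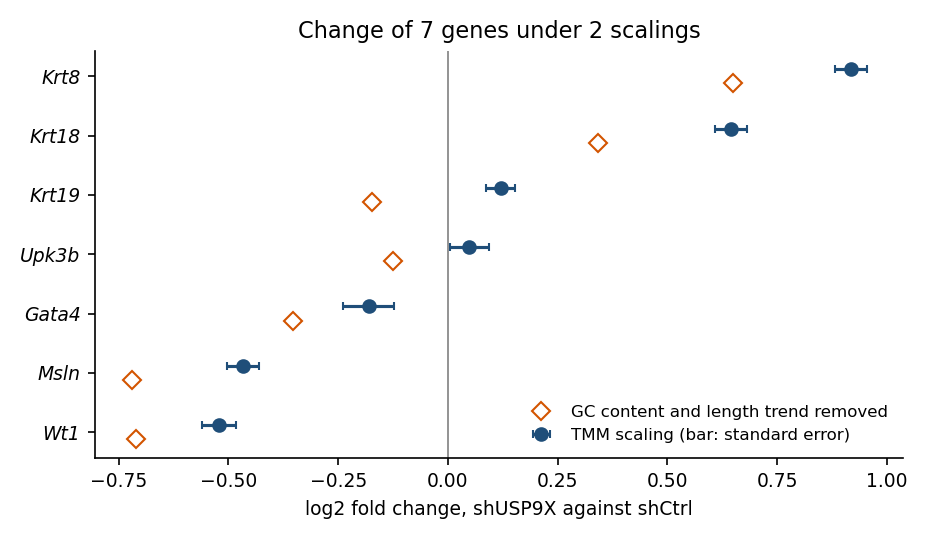
Log2 fold change in shUSP9X against shCtrl for the 7 abundant genes, with filled circles and standard errors from TMM scaling and open diamonds with the trend on GC content and transcript length removed. Krt8 and Krt18 are above 0 and Msln, Wt1 and Gata4 below 0 under both, while Krt19 (0.12 and -0.17) and Upk3b (0.05 and -0.12) change sign.

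Of 22 other listed genes of the ovarian surface epithelium and the mesothelium, 15 were tested. Leaving out Lrrn4, which passed the filter only through shCtrl, 7 of 14 were lower, 3 higher and 4 not past the test, with a median log2 fold change of -0.25. With the offset, 7 were lower and 4 higher, with a median of -0.30. Over all genes tested 33.6% were lower and 33.8% higher (27.7% and 36.0% with the offset), and the counts of this and the following lists are given as descriptions beside those shares. Tbx18, a T-box factor of the coelomic lining, had 319 and 286 counts in shCtrl against 176 and 137 in shUSP9X (-1.10, adjusted p = 3e-08, and -0.95 with the offset). Lrrn4, a membrane protein of mesothelial cells, was rare, with 23 and 17 counts against 9 and 5. In the other direction, Upk1b, a tetraspanin of the uroplakin family, went from 82.1 and 85.0 to 130 and 131 FPKM (0.68, adjusted p = 1.3e-13, and 0.58 with the offset). The 2 uroplakin genes of the mesothelial surface thus differed, Upk1b rising and Upk3b not passing the test, and their difference was not itself tested. Aldh1a1, a retinaldehyde dehydrogenase of the ovarian surface, had 98 and 77 counts against 155 and 108 (0.44, adjusted p = 0.0434, and 0.44 with the offset). The call was lost in 7 of 16 alternatives, among them DESeq2 (adjusted p = 0.164), all limma fits (0.0814 to 0.139), library size only (0.0584), and the fits without shCtrl replicate 2 (adjusted p = 0.171) and without shUSP9X replicate 1 (adjusted p = 0.353). Calb2, Aldh1a2, Lhx2 and Tcf21 were at 0 in all 4 libraries.

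Transcripts of the proteins that tie keratins to desmosomes and to other cytoskeletal filaments differed in both directions. Of 16 genes tested, Pkp3 passed the filter only through shUSP9X, and of the other 15, 6 were lower, 5 higher and 4 not past the test (median -0.20). With the offset, 4 were lower and 6 higher, with a median of 0.04. Eppk1, the keratin-binding epiplakin, went from 3.85 and 4.11 to 7.59 and 7.27 FPKM (0.93, adjusted p = 3.5e-13), and had no GC content for the offset to act on. Pkp3, a plakophilin of the desmosome plaque, had 5 and 9 counts against 20 and 27. The long transcripts of the spectraplakins, which link filament systems, were lower. Dst was at 41.4 and 45.2 FPKM in shCtrl and 16.5 and 15.3 in shUSP9X (-1.45, adjusted p = 2.2e-21), but -0.20 with the offset. Macf1 was at 108 and 105 against 44.8 and 47.0 (-1.22, adjusted p = 1.8e-20), and turned to 0.21 with the offset. Dsp, the desmoplakin that anchors keratins to desmosomes, was named after its values were seen because it also turned, from -0.20 (adjusted p = 0.00171) to 0.43 (adjusted p = 2.5e-07).

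Among other intermediate filament genes, 8 were tested. Leaving out Prph and Synm, which reached the level of the filter in both libraries of shCtrl alone, 1 of 6 was lower and 2 higher (median 0.12, and -0.06 with the offset). Vimentin (Vim), the filament of mesenchymal cells that mesothelial cells also make, was the most abundant, at 878 and 908 FPKM in shCtrl and 1161 and 1139 in shUSP9X (0.39, adjusted p = 3e-12). Lmna, a nuclear lamin, went from 330 and 348 to 496 and 474 FPKM (0.51, adjusted p = 9e-13). Nestin (Nes) went from 15.1 and 13.8 to 8.64 and 8.50 FPKM (-0.73, adjusted p = 7e-11). Prph, the neuronal filament peripherin, had 35 and 38 counts against 12 and 7. With the offset, Vim was at 0.41, Lmna at 0.37 and Nes at -0.78.

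Müllerian genes gave no common direction, with 1 of 7 lower and 2 higher (median -0.05), leaving out Ovgp1, which passed the filter only through shCtrl. Pax2, Sox17, Cldn7, Wfdc2, Pgr and Hoxa11 were at 0 in all libraries. Ovgp1, a glycoprotein secreted by the oviduct, had 54 and 37 counts in shCtrl against 11 and 4 in shUSP9X. Spp1, the secreted protein osteopontin, went from 1740 and 1667 to 946 and 963 FPKM (-0.81, adjusted p = 3.2e-18). Cldn3, a tight junction claudin, had 53 and 43 counts against 162 and 103 (1.31, adjusted p = 1.1e-05). Folr1, a folate receptor often found on ovarian cancers, went from 58.9 and 48.1 to 68.5 and 65.1 FPKM (0.40, adjusted p = 1e-05), and was at 0.11 with the offset (adjusted p = 0.162). With the offset, Spp1 was at -0.65 and Cldn3 at 1.03. Of 14 membrane mucins, mesothelin relatives and uroplakins, Muc1 alone was tested, with 6 and 18 counts against 12 and 8, and did not pass (-0.41, adjusted p = 0.546).

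Partners and relatives of Gata4 and Wt1 also split, with 5 of 14 tested lower and 4 higher (median -0.05). Zfpm2, the FOG2 cofactor that binds Gata4, went from 17.3 and 18.2 to 10.6 and 10.9 FPKM (-0.69, adjusted p = 8e-11), and was at -0.22 with the offset (adjusted p = 0.00186). Cited2, a transcriptional coactivator that acts with Wt1 in the early gonad, went from 22.2 and 24.6 to 33.8 and 34.6 FPKM (0.59, adjusted p = 9.6e-09, and 0.36 with the offset). Of the TEAD factors of the Hippo pathway, Tead4 rose from 484 and 475 to 963 and 767 counts (0.70, adjusted p = 1.9e-08, and 0.52 with the offset). Tead1 fell from 44.5 and 46.5 to 26.1 and 24.5 FPKM (-0.92, adjusted p = 3.7e-17), but was at -0.01 with the offset (adjusted p = 0.742). Tead3, named after its values were seen, had 121 and 125 counts against 107 and 91. It was lower (-0.46, adjusted p = 0.0289, and -0.62 with the offset, adjusted p = 0.00401). Wtap (-0.22 to 0.30) and Basp1 (0.14 to -0.14), proteins known to bind Wt1, passed the test in opposite directions without and with the offset, and were named for that after their values were seen.

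**Figure D5:**
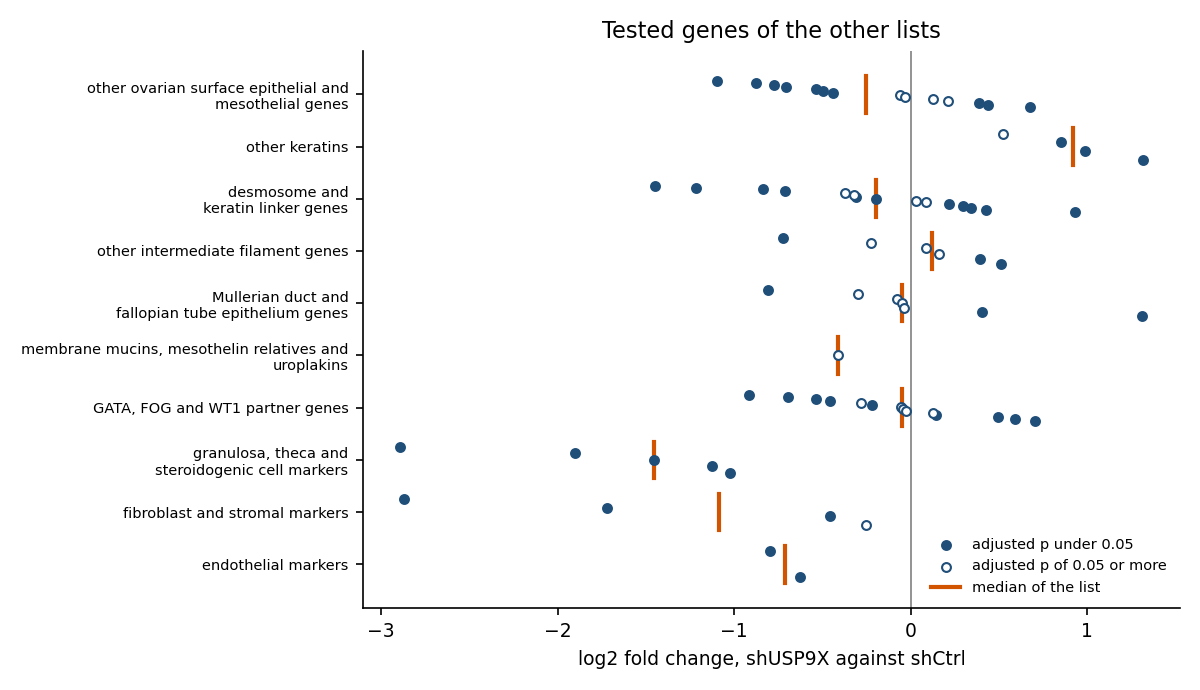
Log2 fold change (shUSP9X against shCtrl, TMM scaling) of each tested gene in 10 further lists, leaving out those that reached the filter on low counts in both libraries of 1 group alone, filled where the adjusted p was under 0.05, with the median of each list as an orange bar. Other keratins lie to the right of 0 and granulosa, theca and steroidogenic markers to the left, while the desmosome, intermediate filament, Müllerian and partner lists spread to both sides; with the GC content and length offset Macf1 (-1.22), Dsp (-0.20), Wtap (-0.22), Basp1 (0.14) and Dcn (-0.46) turn and pass the test in the other direction.

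Markers of other cell types were read to see which could be present. In bulk RNA, fewer cells of a type and less RNA per cell cannot be told apart. All 5 tested genes of 16 granulosa, theca and steroidogenic markers were lower (Amhr2, Inhba, Inhbb, Star and Fst, the last 2 named to complete the 5), with a median of -1.45. The list summed to 116 and 116 CPM in shCtrl and 40.8 and 44.0 in shUSP9X. Its most abundant gene, the inhibin subunit Inhbb, had 970 and 927 counts against 402 and 363 (-1.45, adjusted p = 1.3e-14). Inhba had 461 and 410 against 134 and 123 (-1.90, adjusted p = 2.5e-13), and Amhr2, the receptor for anti-Müllerian hormone, 111 and 86 against 14 and 15 (-2.89, adjusted p = 5e-09). With the offset, Inhbb was at -1.54, Inhba at -1.14 and Amhr2 at -3.16. The defining genes Foxl2, Fshr, Lhcgr, Cyp19a1, Cyp17a1, Hsd3b1 and Nr5a2 were at 0 in all libraries. Nr5a1, a transcription factor of steroidogenic cells, was counted in the list of Gata4 and Wt1 partners and went the other way. It had 814 and 872 counts in shCtrl against 1455 and 1176 in shUSP9X (0.49, adjusted p = 7e-07, and 0.31 with the offset). It was named after its values were seen.

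Of 13 fibroblast and stromal markers, 5 were tested, and leaving out Acta2, which reached the level of the filter in both libraries of shUSP9X alone, 3 of 4 were lower. With the offset, 2 of the 4 were lower and 1 higher. The list summed to 255 and 264 CPM in shCtrl against 151 and 148. Pdgfra, a growth factor receptor, had 272 and 215 counts against 34 and 39 (-2.87, adjusted p = 6.6e-13), and the collagen gene Col1a1 1174 and 1245 against 452 and 362 (-1.72, adjusted p = 4.5e-16), with -2.63 and -1.78 under the offset. Dcn, the proteoglycan decorin and the most abundant of the list, had 2919 and 2634 against 2434 and 2032 (-0.46, adjusted p = 1.8e-09), and turned to 0.44 with the offset. Pdgfrb, Lum, Dpt and Thy1 were at 0 in all libraries. Of 9 endothelial markers, 3 were tested, and leaving out Pecam1, which reached that level in both libraries of shUSP9X alone, both others were lower, with list sums of 108 and 116 against 71.2 and 72.9 CPM. These were the receptors Flt1, the most abundant (1680 and 1651 counts against 1272 and 1107, -0.63, adjusted p = 2.5e-10), and Tek (172 and 165 against 109 and 105, -0.80, adjusted p = 0.00012), with -0.51 and -0.67 under the offset. Cdh5, Kdr, Emcn and Cldn5 were at 0 in all libraries.

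Leukocyte markers were found almost only in the shUSP9X libraries. The 5 genes of 16 that passed the filter did so only through shUSP9X, so they could be called in the higher direction alone. The list summed to 0.173 and 0.316 CPM in shCtrl and to 12.1 and 13.2 in shUSP9X. Itgam, an integrin subunit of myeloid cells and the most abundant, had 0 and 0 counts against 72 and 75. Adgre1, the macrophage receptor F4/80, had 0 and 0 against 58 and 59. Ptprc (CD45) had 0 and 0 against 29 and 18, Csf1r 0 and 0 against 17 and 13, and Cd74 1 and 4 against 49 and 45, these 3 being named to complete the 5. Cd3e, C1qa, C1qb and Nkg7 were at 0 in all libraries. The 10 genes described above summed to 2505 and 2545 CPM in shCtrl and to 2855 and 2809 in shUSP9X. Sums over unlike genes do not measure a share of cells. The part of leukocyte RNA in the changes of the 10 genes was not tested.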

How the data were processed

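The authors mapped reads to GRCm38 and deposited unpooled values for each gene and library: the estimated count, and the FPKM, which is scaled by transcript length and library size. The submitters' processing notes name fastp 0.18.0, Bowtie2 2.2.8, HISAT2, StringTie 1.3.1 and RSEM, and the labels name a library kit (NEBNext Ultra RNA) that does not mark strand. Of the count values, 6.4 to 6.69% were not whole, and counts were rounded to whole numbers before testing, as planned for estimated counts. Groups came from the sample labels, and 0 per-sample columns were left unmapped. Genes were filtered (filterByExpr), TMM-scaled and given edgeR's two-sided quasi-likelihood test (edgeR 4.0.16, R 4.3.3), with Benjamini-Hochberg adjustment over 11448 genes and a threshold of 0.05. The common biological coefficient of variation was 0.0352, and libraries within a group differed beyond sampling noise (chi-square per gene 3.41 in shCtrl and 2.23 in shUSP9X). Alternatives used DESeq2 1.42.0, limma 3.58.1 (limma-trend on log2(FPKM + 1) or log2(FPKM + 0.1), with or without a minimum mean FPKM of 1), other scalings and filters, a replicate block, a loess offset (span 0.3) on GC content and transcript length, and each library left out. The procedure was tested on simulated data, in which a trend on GC content between the groups gave many false calls without the offset and few with it. The simulated trend was a straight line on GC content with no trend on transcript length. It therefore does not show how the offset acts on a curved trend or on length.

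The genes and lists were chosen with earlier results of these data known. Named genes are Usp9x, the 10 markers and, from each further list, the 2 most lowered and 2 most raised genes that passed the test, with the most abundant gene of lists for other cell types. Gene positions are from GENCODE M21 (GRCm38). Krt7, Krt8, Pax8 and Muc16 overlap annotated genes on the opposite strand that the table does not list, and Krt8 has an annotated pseudogene that the table does not list, so their counts may include other reads. No test over a list was made. Most listed genes enter the text only through the counts of their list.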

Additional observations from a re-analysis of the deposited data

How the results depend on the processing

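Leaving out genes that reached the filter on low counts in both libraries of 1 group alone, 528 values of 33 named genes were computed under the alternatives, of which 501 kept direction and side of the threshold, 19 kept direction and were no longer past it, and 8 changed direction. Those 8 all came from the offset on GC content and transcript length, without and with the replicate block: Krt19 (-0.17 in both), Upk3b (-0.12 in both), Macf1 (0.21 in both) and Dcn (0.44 in both). The cause was not tested. Under the replicate block alone 3 of the 7 markers left were lower and 3 higher, 3810 of all genes were lower and 3855 higher, and no call of a named gene changed. Same-numbered libraries did not deviate together (correlation of deviations -0.0453), so the numbers were not taken as pairs. Over all alternatives 2 to 5 of these 7 markers were lower and 2 or 3 higher, with 2 to 3 and 2 to 3 on leaving out 1 library. Krt8 ranged from 0.65 to 0.95, Krt18 from 0.34 to 0.69, Msln from -0.72 to -0.43 and Wt1 from -0.71 to -0.49, each past the threshold throughout. Krt19 also lost its call in limma on log2(FPKM + 1) and log2(FPKM + 0.1) (0.09 in both, adjusted p = 0.0572 and 0.0568) and without the filter (adjusted p = 0.105), and Gata4 in the latter (-0.24, adjusted p = 0.0986). The difference in the ratio of type II to type I keratins was 0.149 in CPM in place of 0.113 in FPKM. With 2 libraries a group, Krt7 and Pax8 were below what this depth can compare. The count of leukocyte markers called went from 5 to 0 with at least 10 counts in every library and to 1 in limma with the filter on FPKM, both of which test fewer of these genes.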
